A study of Mus musculus with 14 samples.

Results

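The GATA factors are zinc finger proteins that bind DNA at the sequence from which they take their name. Gata1, Gata2 and Gata3 are best known from blood, where Gata2 acts in stem and progenitor cells and Gata3 in T cells; Gata4, Gata5 and Gata6 are best known from heart and endoderm, where Gata4 and Gata6, like the Foxa proteins, have been described as factors able to bind closed chromatin. Gata6 is also required for the primitive endoderm of the early embryo, and Gata3 is used in the trophoblast. The genes described here are Gata2, Gata3, Gata4, Gata5 and Gata6, which were chosen by name and make 5 of the 24054 genes in the tables.

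Their transcripts were measured in 14 low-input RNA-seq libraries of sorted mouse embryonic stem (ES) cells and their derivatives, in 6 groups. The d0con and d0ko groups (n = 2 each) were undifferentiated cells grown on red-fluorescent feeder fibroblasts without LIF and labelled as sorted Cherry-negative at day 0, and the d3con and d3ko groups (n = 3 each) were Venus-positive cells sorted after 3 days on Wnt3a-expressing feeder cells with 12 ng/ml Activin A, a protocol that leads towards endoderm. In the con cells 1 allele of Foxa2, the gene of a forkhead transcription factor of the endoderm, was replaced by an H2B-Venus reporter (Foxa2-Venus-KO/+), and in the ko cells both were (Foxa2-Venus-KO/Foxa2-Venus-KO), so that the con cells were heterozygous rather than wild type. Replicates 1 and 3 of con came from clone C59 and replicate 2 from clone C63, and replicates 1 and 3 of ko came from clone C9 and replicate 2 from clone C17, so that each genotype rests on 2 clones. The d2-FVFn and d2-FVFp groups (n = 2 each) were the Venus-negative and Venus-positive cells of the single line T119, which carries a doxycycline-inducible Foxa2-Venus transgene, after 48 h with 40 ng/ml doxycycline in medium with LIF and serum and without feeders. Replicates were separate libraries, and p-values measure the spread between them.

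Library totals ran from 14142788 to 27278237 expected counts. Foxa2 lay at 0.07 to 0.19 TPM, a measure per transcript length that sums to the same total in each library, in d0con, d0ko and d3ko, at 34.81 to 58.64 TPM in d3con, at 2.01 and 2.99 TPM in d2-FVFn and at 159.81 and 168.57 TPM in d2-FVFp, as the labels require. The d3ko libraries were not alike. The summed level of 10 pluripotency genes was 15800 and 17900 TPM in d3ko replicates 1 and 3, in the range of the 4 day 0 libraries or above it (14200 to 16000 TPM), and 2740 TPM in replicate 2, against 577 to 1010 TPM in d3con. The summed level of 11 definitive endoderm genes was 280, 646 and 120 TPM in d3ko replicates 1, 2 and 3, against 1380 to 1800 TPM in d3con and 26.1 to 51.9 TPM at day 0. In d3con replicates 1, 2 and 3 the pluripotency sum was 680, 1010 and 577 TPM. The definitive endoderm sum was 1660, 1380 and 1800 TPM there. By these sums, taken from the same data, replicate 2 of each day 3 group stood apart from the other 2, and values are given with and without it. It was also the only day 3 library of its clone, so that without it a day 3 group rests on 1 clone. The replicate 1 libraries of both day 3 groups were quantified with 75-base reads and all other libraries with 50-base reads, judging by their effective lengths.

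Taken over all libraries, the 5 genes had 4 patterns. Gata4 and Gata6 rose from low to high levels by day 3 in both genotypes, Gata2 was higher in d3ko than in d3con, Gata3 was high in 2 of the 3 d3con libraries, and Gata5 was found above a few counts in d2-FVFp alone of the 6 groups. Summed over the family, the level was 3.80 ± 0.226 TPM (SD, n = 2) in d0con and 6.25 ± 0.82 TPM (SD, n = 2) in d0ko. It was 176 ± 49.6 TPM (SD, n = 3) in d3con, 69.1 ± 33.7 TPM (SD, n = 3) in d3ko, 3.15 ± 0.481 TPM (SD, n = 2) in d2-FVFn and 15.6 ± 1.41 TPM (SD, n = 2) in d2-FVFp. In bulk samples such as these, fewer cells of a type and less RNA per cell cannot be told apart.

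**Figure D1:**
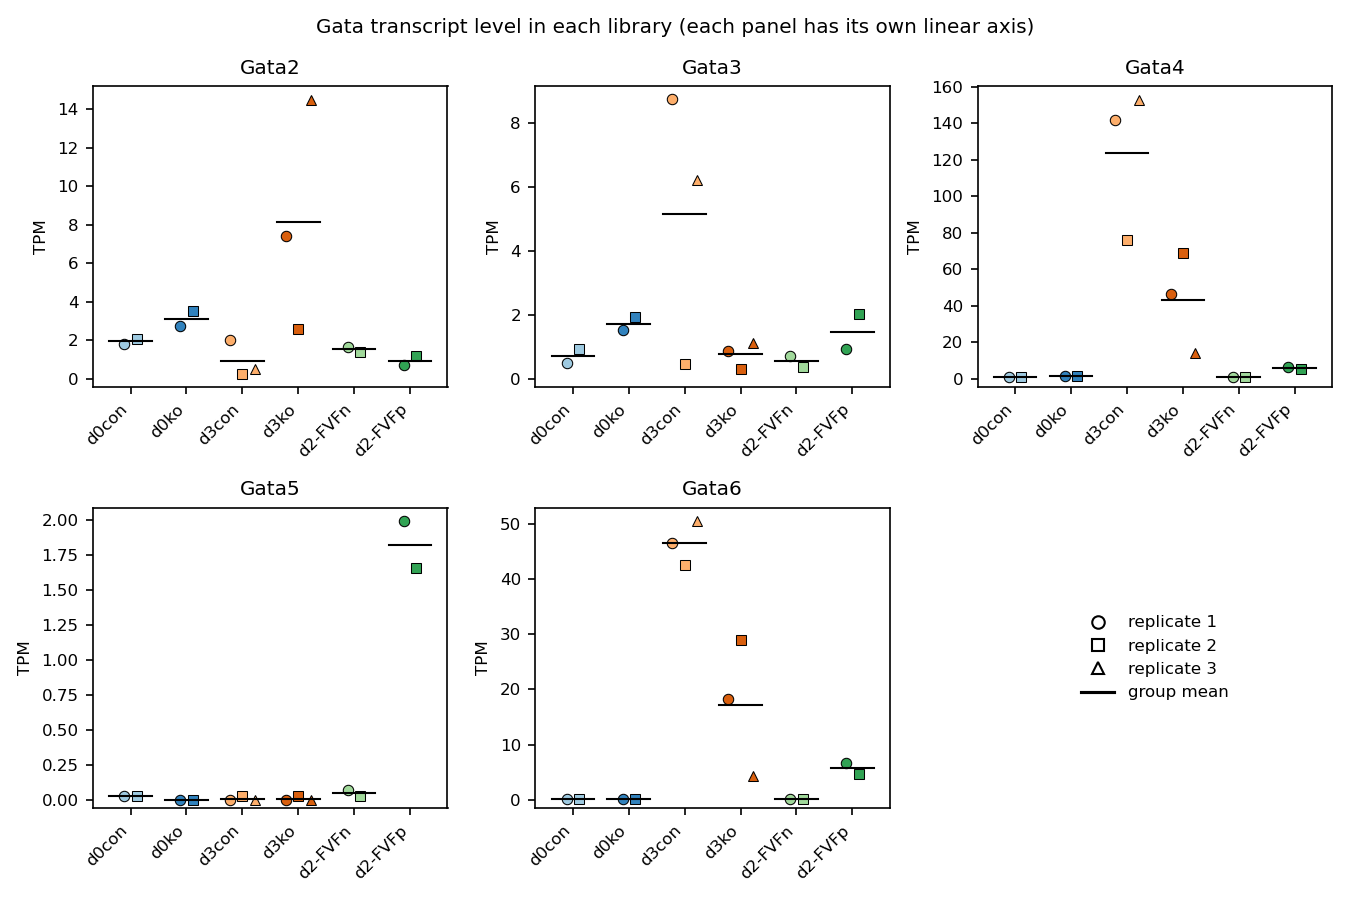
TPM (vertical axis, linear and set separately for each gene) of the 5 Gata genes in the 14 libraries, by group; circles, squares and triangles are replicates 1, 2 and 3 and the lines are group means. Gata4 and Gata6 are high in the day 3 groups, Gata3 is high in d3con replicates 1 and 3, and Gata5 reaches 1.66 and 1.99 TPM in d2-FVFp.

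Gata4, which acts with Gata6 in the endoderm and in heart precursors, was at 1.05 and 0.83 TPM in d0con, and at 141.91, 75.89 and 152.89 TPM in d3con. It was at 1.24 and 1.18 TPM in d0ko, and at 46.19, 69.03 and 13.81 TPM in d3ko. Every day 3 library lay above every day 0 library in both genotypes, and the 3 d3ko libraries lay below the 3 d3con libraries with a narrow gap, since the highest d3ko value and the lowest d3con value both came from replicate 2. Between d0con and d3con Gata4 rose by 6.83 ± 0.77 on the log2 scale (SE, adjusted p = 0.00032), and between d0ko and d3ko by 4.97 ± 0.70 (SE, adjusted p = 0.00197). The increase was thus past the threshold without a functional Foxa2 allele.

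Gata6, the member that acts earliest in the endoderm of the embryo, was at 0.27 and 0.12 TPM in d0con, and at 46.42, 42.59 and 50.39 TPM in d3con. It was at 0.18 and 0.25 TPM in d0ko, and at 18.27, 28.90 and 4.34 TPM in d3ko. The d3con libraries were close to each other, whereas the d3ko libraries spread over a wide range below them, with replicate 3 lowest and replicate 2 highest, in the same order as for Gata4. Gata6 rose by a log2 fold change of 7.64 ± 0.90 in con (SE, adjusted p = 0.00037) and of 6.16 ± 0.85 in ko (SE, adjusted p = 0.00186). Against the day 0 levels of 4 to 10 expected counts a library, 207 to 2016 counts were found at day 3, and Gata6 entered the test through its day 3 libraries alone of the 2 days.

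Of the 4 members that could be tested between d0con and d3con, 2 were called higher (Gata4 and Gata6) and 0 lower; a call needed an edgeR adjusted p below 0.05 together with more than a 2-fold change in either direction. In that comparison 20.6% of all 13899 genes tested were called higher and 14.6% lower. Between d0ko and d3ko the same 2 of 4 members were called higher and 0 lower, against 11.6% and 5.72% of all genes. Gata6 passed the filter on low counts only through the day 3 libraries in which it was high. Its call in both day comparisons was favoured by that entry, which leaves Gata4 as the 1 call free of it. These day comparisons have no samples in common, while the comparison of d3ko with d3con shares its libraries with both. Whether the rise differed between the genotypes was tested by the interaction of genotype and day. It was -1.86 ± 0.87 on the log2 scale for Gata4 (SE, adjusted p = 0.398) and -1.48 ± 1.20 for Gata6 (SE, adjusted p = 0.639), so that neither difference in the size of the rise passed the test.

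At day 3 the mean level of Gata4 in d3ko was 34.8% of that in d3con, and that of Gata6 was 37%. The log2 fold changes between d3ko and d3con were -1.54 ± 0.49 for Gata4 (SE, adjusted p = 0.0774) and -1.45 ± 0.52 for Gata6 (SE, adjusted p = 0.108), and neither passed the threshold. Both did without d3ko replicate 2, where Gata4 was at -2.03 (edgeR adjusted p = 0.0185) and Gata6 at -2.03 (edgeR adjusted p = 0.0206). They also did without both replicate 2 libraries of day 3, at -2.30 (edgeR adjusted p = 0.00912) and -2.11 (edgeR adjusted p = 0.0254), and with DESeq2 in place of edgeR, at -1.53 (DESeq2 adjusted p = 0.0127) and -1.44 (DESeq2 adjusted p = 0.0415). With both replicate 3 libraries left out instead, a choice made after the data were seen, they were at -0.98 and -0.96. Among the libraries of 50-base reads, without both replicate 1 libraries, they were at -1.46 (edgeR adjusted p = 0.329) and -1.49 (edgeR adjusted p = 0.356). The call for both genes therefore turned on which libraries and which test were used. Without replicate 2 a day 3 group holds 1 clone, C59 in d3con or C9 in d3ko, and shows no spread between clones.

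**Figure D2:**
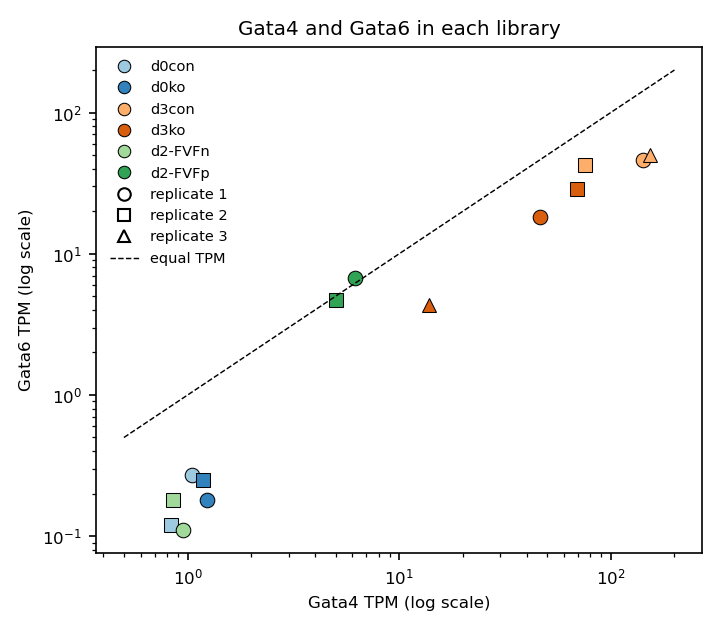
TPM of Gata4 (horizontal, log scale) against TPM of Gata6 (vertical, log scale) in the 14 libraries; colours are groups, shapes are replicates and the dashed line marks equal TPM. The day 3 libraries lie below the line, at 1.78 to 3.18 TPM of Gata4 for each TPM of Gata6, and the d2-FVFp libraries lie on it, at 0.92 and 1.06.

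At day 3 the proportion of the 2 transcripts varied less between libraries than their amount. The ratio of Gata4 to Gata6 TPM was 3.06, 1.78 and 3.03 in d3con and 2.53, 2.39 and 3.18 in d3ko, so that the genotypes overlapped. It was 0.92 and 1.06 in d2-FVFp, below every day 3 library. Across the 14 libraries the Pearson correlation of log2(TPM + 1) between the 2 genes was 0.984, and Gata6 ranked 8 among the 12935 genes compared with Gata4. The libraries fall into groups by day, so that this number describes their shared rise and is given with no test.

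Gata2, the factor of blood progenitors, was at 1.80 and 2.07 TPM in d0con and at 2.72 and 3.49 TPM in d0ko. At day 3 it was at 2.03, 0.26 and 0.51 TPM in d3con and at 7.44, 2.56 and 14.51 TPM in d3ko. The lowest d3ko library lay just above the highest d3con library, and replicate 3 of d3ko was highest of all 14. Gata2 was the 1 member of 4 called higher in d3ko than in d3con, at a log2 ratio of 3.07 ± 0.82 (SE, adjusted p = 0.0447), and 0 of 4 were called lower. Among all genes 4.75% were called higher and 3.51% lower there. Over time, its log2 fold change was -1.19 ± 0.86 from d0con to d3con (SE, adjusted p = 0.265) and 1.24 ± 0.87 from d0ko to d3ko (SE, adjusted p = 0.303), with an interaction of 2.43 ± 1.22 (SE, adjusted p = 0.435), so that the genotypes differed in direction without either change passing the test.

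The Gata2 call was close to the threshold. It was lost without any 1 of the 4 day 0 libraries (edgeR adjusted p = 0.0744 to 0.0759 at an unchanged log2 fold change of 3.07), without d3con replicate 2 (2.63; adjusted p = 0.0733) or 3 (2.75; adjusted p = 0.159) and without d3ko replicate 1 (3.12; adjusted p = 0.0896) or 3 (2.37; adjusted p = 0.139). It was kept without d3con replicate 1, where the fold change was 4.39, and without d3ko replicate 2. With the libraries of 1 clone summed it was 3.17 ± 0.90 (SE, adjusted p = 0.151). Without d3con replicate 1, Gata2 was also called lower in d3con than in d0con (-2.50; edgeR adjusted p = 0.0297).

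Gata3, which is used in the trophoblast and in T cells, was at 0.49 and 0.91 TPM in d0con and at 1.53 and 1.91 TPM in d0ko. It was at 8.73, 0.47 and 6.21 TPM in d3con and at 0.85, 0.29 and 1.12 TPM in d3ko. The 2 high libraries were both of clone C59, while the library of clone C63 lay just below d0con, and the d3con and d3ko ranges overlapped. The log2 fold change was 2.70 ± 1.06 from d0con to d3con (SE, adjusted p = 0.0577), -1.33 ± 0.95 from d0ko to d3ko (SE, adjusted p = 0.313) and -2.77 ± 0.91 between d3ko and d3con (SE, adjusted p = 0.0834). None of these passed the threshold. Without d3con replicate 2 the first was 3.25 (edgeR adjusted p = 0.00471) and the last -3.31 (edgeR adjusted p = 0.0112), and without d3ko replicate 2 the first was 2.71 (edgeR adjusted p = 0.046).

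The interaction of genotype and day for Gata3 was -4.03 ± 1.41 (SE, adjusted p = 0.27), and it was -4.19 ± 0.59 (SE, adjusted p = 0.00432) without both replicate 2 libraries of day 3. Of 13689 genes tested without these libraries, 942 were called higher and 686 lower for the interaction. The latter fit held 1 clone in each day 3 group. In the interaction fitted over all 10 libraries, 0 of 4 members and 0% of all genes were called by edgeR. At an unadjusted p under 0.05 there were 1840 genes and 1 member, Gata3. With DESeq2, 299 genes had a higher and 266 a lower change in ko, with 0 of the members among them.

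Markers of other cell types differed between the day 3 libraries as well. The summed level of 11 fibroblast feeder genes was 313, 61.1 and 223 TPM in d3con replicates 1, 2 and 3, and 302, 138 and 375 TPM in d3ko, so that in each genotype the library with the lowest feeder signal also had the lowest Gata3 and the lowest Gata2 level. The 3 libraries of each genotype stood in the same order by feeder signal, by Gata2 and by Gata3. Of that list 9 genes reached a mean of 1 TPM in each day 3 group, and none was at 0 throughout. At day 0 the feeder sum was 13.4 and 15.9 TPM in d0con and 40.8 and 149 TPM in d0ko. The sum of 15 blood and endothelial genes was 46.5, 37.6 and 45.5 TPM in d3con and 186, 90.8 and 105 TPM in d3ko. The groups were thus apart in the same direction as for Gata2, while the highest library of d3ko was replicate 1 for this sum and replicate 3 for Gata2. Pecam1, the 1 gene of this list called between d3ko and d3con, averaged 45.2 TPM in d3ko and 2.08 TPM in d3con. It was already at 36.2 TPM in d0con and 53.9 TPM in d0ko, so that its part of the sum was not new at day 3. The sum of 11 trophoblast genes was 2630, 1490 and 2550 TPM in d3con and 451, 510 and 234 TPM in d3ko. It was lowest in d3con where Gata3 was lowest, but in d3ko it was highest where Gata3 and Gata2 were lowest. It consisted mostly of Krt8 and Krt18, keratins of epithelia in general. Of the 7 trophoblast genes tested from d0con to d3con, 4 were called higher (Krt7, Krt8, Krt18 and Ascl2) and 3 lower (Tfap2c, Tead4 and Esx1), against 20.6% and 14.6% of all genes. The part of cells other than the sorted ones in the Gata2 and Gata3 values was not tested.

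**Figure D3:**
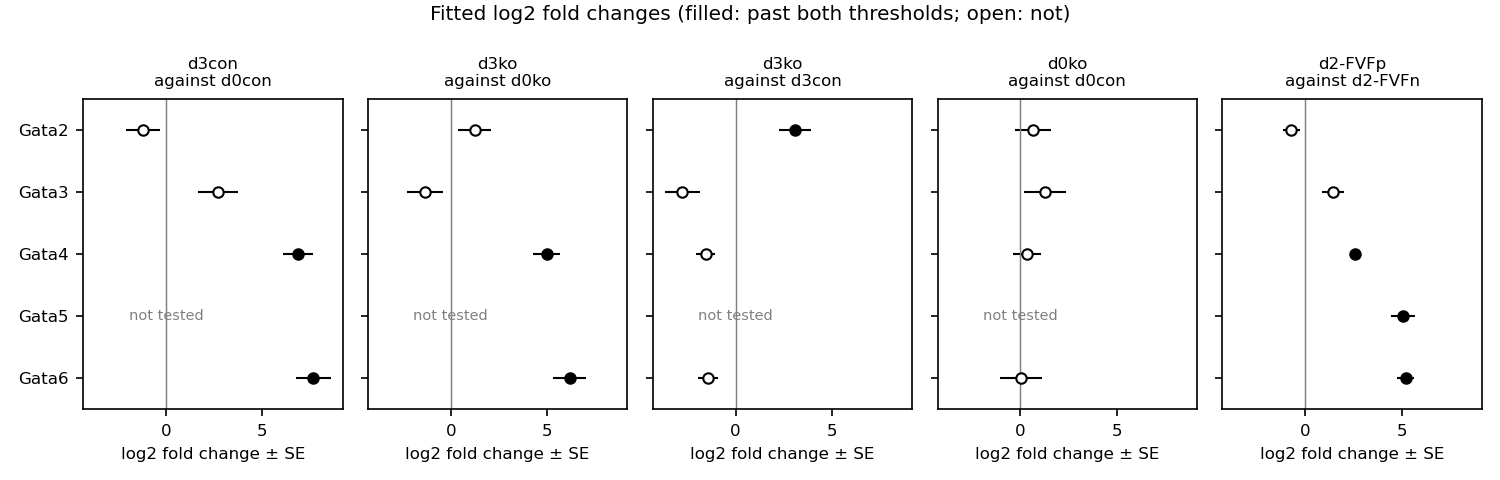
Log2 fold change with its SE (horizontal axis) of each Gata gene in 5 comparisons; filled points passed both thresholds and open points did not. Gata4 and Gata6 are filled in both day comparisons and in the doxycycline comparison, Gata2 in d3ko against d3con alone of the 5 panels, and Gata5 in the doxycycline comparison, where alone of these comparisons it could be tested.

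At day 0, before differentiation, the genotypes were compared as a background. The log2 fold changes of d0ko over d0con were 0.64 for Gata2, 1.26 for Gata3, 0.32 for Gata4 and 0.03 for Gata6, each with an SE of 0.72 to 1.08 and an edgeR adjusted p of 1. Accordingly, edgeR called 0 of 4 members and 0% of all genes. At an unadjusted p under 0.05 there were 195 genes and 0 members, and DESeq2 called 1 gene, none of the members. The ranges of d0con and d0ko did not overlap for Gata2, Gata3 and Gata4, all 3 higher in d0ko, and overlapped for Gata6. With 2 libraries a group, none of these differences passed the test.

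In the line with induced Foxa2, no step of endoderm differentiation was applied, and the sorted Venus-negative and Venus-positive cells came from 1 culture condition. Gata4 was at 0.95 and 0.85 TPM in d2-FVFn and at 6.21 and 5.0 TPM in d2-FVFp. Gata6 was at 0.11 and 0.18 TPM in d2-FVFn and at 6.73 and 4.71 TPM in d2-FVFp. For both genes the Venus-positive libraries lay far above the Venus-negative ones and close to each other. Gata4 rose by 2.59 ± 0.30 on the log2 scale (SE, adjusted p = 0.00338) and Gata6 by 5.19 ± 0.44 (SE, adjusted p = 0.00148). With 3 and 6 expected counts in d2-FVFn, Gata6 passed the filter on low counts only through the d2-FVFp libraries in which it was high.

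Gata5, the third of the heart and endoderm members, was at 0.07 and 0.03 TPM in d2-FVFn, from 2 counts and 1 count, and at 1.99 and 1.66 TPM in d2-FVFp, from 48.87 and 48 expected counts. The ratio of the summed counts, with library totals scaled by TMM, was 36.1 with a 95% exact counting interval of 12 to 178, which covers counting error only. The fitted log2 fold change was 5.08 ± 0.62 (SE, adjusted p = 0.00367). Gata5 passed the filter only through the d2-FVFp libraries in which it was high, so that it had to differ if it was tested at all. In the 10 day 0 and day 3 libraries Gata5 had 0 or 1 count each and was not tested, so that with Foxa2 at 34.81 to 58.64 TPM in d3con it was not detectable at this depth beyond a single count. A count of 0 there allows up to 3 counts, or 0.11 to 0.189 CPM, counts scaled to the library total.

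Gata2 and Gata3 did not pass the test in this line as fitted without a block. Gata2 was at 1.64 and 1.39 TPM in d2-FVFn and at 0.70 and 1.16 TPM in d2-FVFp, at a log2 ratio of -0.73 ± 0.43 (SE, adjusted p = 0.273). Gata3 was at 0.72 and 0.36 TPM in d2-FVFn and at 0.92 and 2.02 TPM in d2-FVFp, at a log2 ratio of 1.42 ± 0.58 (SE, adjusted p = 0.132). With the replicate block Gata3 was called (1.38, edgeR adjusted p = 0.0238), as it was with no filter on low counts (1.41, edgeR adjusted p = 0.038). The Gata3 libraries did not overlap, and the higher d2-FVFn library was close to the lower d2-FVFp library. Thus 3 of the 5 members were called higher and 0 lower between d2-FVFn and d2-FVFp, against 6.96% and 1.47% of all 12943 genes tested. Gata5 and Gata6 entered that test only through their d2-FVFp libraries, and without either of these they no longer reached the minimum of 1 CPM in 2 libraries, which left Gata4 as the 1 member called. The feeder sum was 3.08 to 4.55 TPM over the 4 libraries in this series. Of 7 trophoblast genes tested, 4 were called higher in d2-FVFp (Cdx2, Krt7, Krt8 and Krt18) and 0 lower. The other tested genes had log2 ratios of 0.96 for Tead4, -0.29 for Ascl2 and -0.38 for Tfap2c, and Elf5 was at 0 in both d2-FVFp libraries.

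The promoter letters of Gata5 are shown because it was the member found in the Foxa2-induced cells alone of the 6 groups, and those of Gata3 because they hold the one GATA match among the members. RefSeq promoter windows of 300 bases were at hand for Gata2 (2 starts), Gata3 and Gata5, and were searched on both strands for the forkhead core (TGTTTAC or TGTTTGC or TGTTTAT or TGTTTGT or TATTTAC or TATTTGC or TATTTAT or TATTTGT) and for a GATA motif (AGATAA or AGATAG or TGATAA or TGATAG). Of 32817 promoter windows of this length, 27.5% hold a forkhead match and 29.8% a GATA match. Among the 4 windows of the members, the Gata5 window holds 1 forkhead match, from base 39 to base 45, and the Gata3 window holds 1 GATA match, from base 287 to base 292, which lies after the start. Neither Gata2 window holds a match. Printed from 5′ to 3′ on the minus strand of GRCm38.p6 are the 250 bases before the Gata5 start at chr2:180334680-180334929 and 30 bases around the Gata3 match at chr2:9878551-9878580, with the matches in capitals.
Gata5: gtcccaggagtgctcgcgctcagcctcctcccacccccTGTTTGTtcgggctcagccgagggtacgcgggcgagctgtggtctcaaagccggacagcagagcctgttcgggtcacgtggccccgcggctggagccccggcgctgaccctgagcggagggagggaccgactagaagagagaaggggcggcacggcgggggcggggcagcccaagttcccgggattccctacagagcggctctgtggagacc
Gata3: ctgcctggcgccgtctTGATAGtttcagaa
Both starts lie inside their genes as annotated, 824 bases (Gata5) and 9353 bases (Gata3) downstream of the outermost 5′ end. A match is a description of the letters and not a measured binding site. The 4 windows have 67.3% to 73.7% G and C.

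The share of each member in the family total differed between the groups. Gata2 made 47.0% to 52.3% of the summed TPM in each of the 6 libraries of d0con, d0ko and d2-FVFn, where the sum was 2.81 to 6.83 TPM. In d3con Gata4 made 69.2% ± 4.94 and Gata6 27.7% ± 6.97 (SD, n = 3), and Gata2 0.467% ± 0.462. In d3ko the share of Gata2 was 10.2%, 2.5% and 43.0%, and in replicate 3 the Gata2 and Gata4 levels were about equal (14.51 and 13.81 TPM). In d2-FVFp Gata4 and Gata6 made 36.0% and 36.5% and Gata5 11.7% on average (n = 2). Gata4 and Gata6 were thus the 2 leading members in d3con, in d3ko replicates 1 and 2 and in d2-FVFp, whereas in d3ko replicate 3 Gata2 led with 43.0%, before Gata4 with 40.9% and Gata6 with 12.8%.

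**Figure D4:**
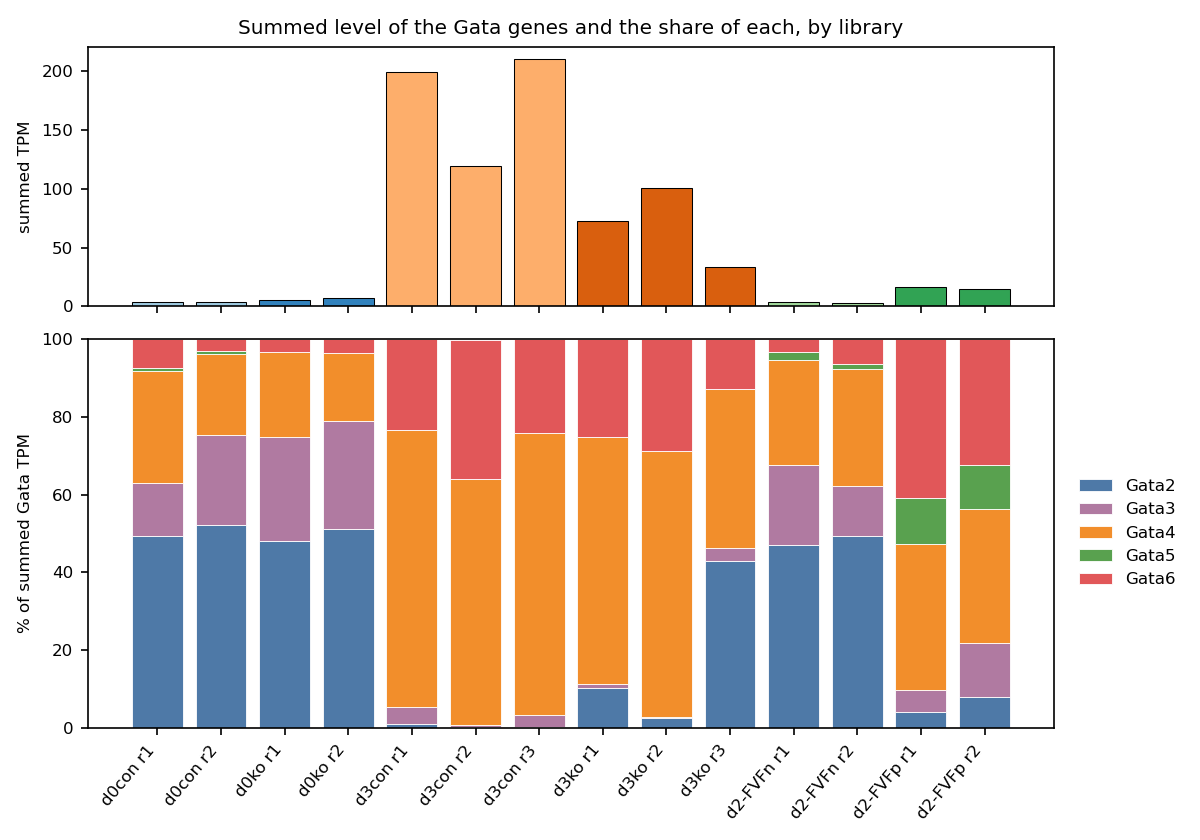
Summed TPM of the 5 Gata genes (top, bars from 0) and the percent of that sum from each gene (bottom) in the 14 libraries, where r1 to r3 are the replicates. Gata2 makes about 50% where the sum is low, Gata4 and Gata6 lead in d2-FVFp and in the day 3 libraries other than d3ko replicate 3, where Gata2 leads with 43.0%.

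Ordered by mean TPM, Gata4 went from d2-FVFn (0.90) and d0con (0.94), which overlapped, to d0ko (1.21), d2-FVFp (5.61), d3ko (43.0) and d3con (124), each of the latter steps with no overlap between neighbours. Gata6 had the same order, with overlap among the 3 lowest groups (0.145, 0.195 and 0.215 TPM) and between d2-FVFp (5.72) and d3ko (17.2), but not between d3ko and d3con (46.5). Gata2 went from d2-FVFp (0.93), d3con (0.933) and d2-FVFn (1.51), each overlapping the next, to d0con (1.94), d0ko (3.11) and d3ko (8.17), of which d0ko and d3ko overlapped. Every pair of neighbours overlapped for Gata3, from 0.54 TPM in d2-FVFn to 5.14 TPM in d3con. With Foxa2 at 164 TPM in d2-FVFp and 49.3 TPM in d3con on average, Gata4 was 22 times higher in d3con and Gata6 8.12 times; line, medium and time differed between these groups, and they were not compared by a test.

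Gata1, the factor of red blood cells, is the remaining GATA factor and is no member of the set. It was at 62.70, 23.17 and 74.60 TPM in d3con, against 2.64, 5.13 and 0.85 TPM in d3ko, 2.08 to 4.47 TPM at day 0 and 0.92 to 2.43 TPM in the doxycycline series. It was called higher in d3con than in d0con (log2 fold change 4.14 ± 0.77, SE, adjusted p = 0.00236) and lower in d3ko than in d3con (-4.25 ± 0.65, SE, adjusted p = 0.0107). The interaction of -4.91 ± 0.98 (SE, adjusted p = 0.129) did not pass. The pattern differs from that of Gata4 and Gata6 in that Gata1 was not called higher from d0ko to d3ko (-0.77 ± 0.66, SE, adjusted p = 0.393). Among 11 blood and endothelial genes tested of 15, 4 were called higher and 1 lower from d0con to d3con, 4 higher and 0 lower from d0ko to d3ko and 1 higher (Pecam1) in d3ko than in d3con. Over all genes 20.6% and 14.6%, 11.6% and 5.72%, and 4.75% were called so. Hbb-bh1, an embryonic globin, was at 0 in all d3con and d3ko libraries.

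The cofactors of the GATA factors were examined as a list of 9 genes, all of them tested. From d0con to d3con 1 was called higher and 1 lower, against 20.6% and 14.6% of all genes. The list median log2 fold change there was 0.16 against 0.07 over all genes. From d0ko to d3ko 2 were called higher, between d3ko and d3con 0 in either direction, and between d2-FVFn and d2-FVFp 1 higher. Over all genes 11.6%, 4.75% (higher) or 3.51% (lower), and 6.96% were called so. Zfpm1 (Fog1), the zinc finger partner that binds GATA factors directly, was at 0.46 and 0.83 TPM in d0con, 8.48, 11.06 and 5.14 TPM in d3con, 0.33 and 1.14 TPM in d0ko and 5.24, 7.88 and 1.43 TPM in d3ko. It rose by a log2 fold change of 3.47 ± 0.83 in con (SE, adjusted p = 0.00746), 2.56 ± 0.79 in ko (SE, adjusted p = 0.037) and 2.12 ± 0.52 with induced Foxa2 (SE, adjusted p = 0.0341), the same 3 comparisons in which Gata4 and Gata6 rose. In the last of these Zfpm1 stayed under 1 TPM, at 0.17 to 0.24 TPM in d2-FVFn and 0.87 to 0.98 TPM in d2-FVFp. Lmo2, the bridging protein of blood GATA complexes, rose in ko by 4.53 ± 1.11 (SE, adjusted p = 0.0157), with 15.43 TPM in d3ko replicate 1 and 2.27 and 1.93 TPM in the other two. Ldb1, the other bridging protein, fell by 1.31 on the log2 scale in con (adjusted p = 0.00484). Zfpm2 (Fog2), the partner of Gata4 in the heart, stayed at 0.02 to 0.68 TPM in all libraries.

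Of 10 other proteins with a GATA-type zinc finger, 1 was called higher (Gata1) and 1 lower (Mta3, a subunit of the NuRD repressor complex) from d0con to d3con, with a list median of -0.73 against 0.07 over all genes. Of all genes tested 20.6% were called higher and 14.6% lower in that comparison. Between d3ko and d3con, Trps1, a repressor with a GATA finger, was called higher (2.09 ± 0.48, SE, adjusted p = 0.027) and Gata1 lower, against 4.75% and 3.51% of all genes. Trps1 was at 1.35, 0.61 and 0.61 TPM in d3con and at 5.37, 1.73 and 3.96 TPM in d3ko, and it was also the gene whose level over the 14 libraries was most like that of Gata2 (Pearson r = 0.940).

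Genes with known roles around Gata4 and Gata6 moved with them in part. Of 15 primitive and extraembryonic endoderm genes tested, 9 were called higher from d0con to d3con and 5 from d0ko to d3ko, none lower, with medians of 3.21 and 0.92 against 0.07. Between d3ko and d3con 4 were called lower, and between d2-FVFn and d2-FVFp 6 of 13 were called higher. Over all genes, 20.6% were called higher from d0con to d3con and 11.6% from d0ko to d3ko. The shares were 3.51% lower in d3ko than in d3con and 6.96% higher in d2-FVFp than in d2-FVFn. Col4a1, a basement membrane collagen, was at 106 ± 27.1 TPM in d3con and 72.6 ± 50.4 TPM in d3ko (SD, n = 3), against 3.66 ± 0.247 and 6.38 ± 2.82 TPM at day 0 (SD, n = 2), and at 76.5 ± 2.83 TPM in d2-FVFp against 8.12 ± 1.38 TPM in d2-FVFn (SD, n = 2). The tested genes of this list with a log2 ratio below 0 from d0con to d3con were Sox7 (-1.67), Lama1 (-0.43) and Thbd (-0.07). Between d2-FVFn and d2-FVFp they were Cubn (-0.99), Lama1 (-0.83), Lamb1 (-0.54) and Dab2 (-0.28). None of these was called lower. Of 11 definitive endoderm genes, 11 were called higher from d0con to d3con, 8 from d0ko to d3ko and 6 lower in d3ko than in d3con, where 20.6%, 11.6% and 3.51% of all genes were called. Between d2-FVFn and d2-FVFp 3 of 6 tested were called higher and 1 lower (Otx2, -1.06), against 6.96% and 1.47%. Of these, Sox17, an endoderm regulator, was at 101 ± 34.9 TPM in d3con and 1.37 ± 0.678 TPM in d3ko (SD, n = 3), a log2 ratio of -6.24 ± 0.54 (SE, adjusted p = 0.00226). Among 11 cardiac mesoderm genes tested, 8 and 6 were called higher over time in con and ko, against 20.6% and 11.6% of all genes. Between d3ko and d3con 0 were called, against 4.75% (higher) and 3.51% (lower) of all genes. Between d2-FVFn and d2-FVFp 0 of 4 were called, against 6.96% and 1.47%. In each of these lists some genes, such as Foxq1, Sox17 and Tnnt2, averaged 0.23 TPM or less at day 0. These genes entered the day comparisons through their day 3 libraries, which favoured their calls.

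For each member the 3 genes most like it were found by the Pearson correlation of log2(TPM + 1) over 14 libraries, among 12935 genes with a mean of at least 1 TPM. These values describe levels that libraries of a group share, and carry no test. For Gata4 they were Cyp26a1 (0.991), which breaks down retinoic acid, Micu2 (0.990), a regulator of calcium uptake into mitochondria, and Trappc6a (0.990). Cyp26a1 was at 406 ± 129 TPM in d3con and 210 ± 137 TPM in d3ko (SD, n = 3). For Gata6 they were Maml3 (0.988), a coactivator of Notch signalling, Hspb11 (0.987) and Relt (0.985). For Gata5 they were Bhmt (0.998), Fgb (0.988) and AU040972 (0.988). Bhmt, a methyltransferase of the liver, was at 7.20 ± 0.827 TPM, and Fgb, a chain of fibrinogen made in the liver, at 153 ± 78.3 TPM in d2-FVFp (SD, n = 2), and both were at 0.045 TPM or less on average in every other group. For Gata3 they were Dhrs11 (0.953), Scn3b (0.947) and Fxyd3 (0.933), and for Gata2 after Trps1 they were Nmnat3 (0.938) and Ebf1 (0.909).

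In the mouse genome GRCm38, Gata2 lies at chr6:88193891-88207032 on the plus strand, Gata4 at chr14:63198914-63271712 on the minus strand and Gata6 at chr18:11052510-11085636 on the plus strand. Gata3 (chr2:9857078-9887953) and Gata5 (chr2:180325088-180335503) lie on the minus strand of the same chromosome, as does Foxa2 (chr2:148042877-148046969). All are protein-coding, and the values are for whole genes. No window of 50 bases in the GENCODE M21 transcripts of a member is found in those of another member, so that reads were not split among the 5 genes at that length. Windows shared with other genes make 2.22% of those of Gata3, 5.05% of those of Gata5 and 0.682% of those of Gata6, and 0% of those of Gata2 and Gata4. The library kit does not keep the strand, and reads from these stretches and their antisense partners cannot be told apart.

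The partner of Gata6 is 1010001N08Rik, a non-coding transcript on the opposite strand that shares 93 exon bases with it and was singled out after its values were seen. It had 0 counts in the 4 day 0 libraries. It was at 7.55, 4.62 and 10.96 TPM in d3con, at 2.37, 3.37 and 0.81 TPM in d3ko and at 0.21 and 0.16 TPM in d2-FVFp, from 1 count each. Its libraries thus stood in the order of Gata6 in both day 3 groups. The partner of Gata5, Gata5os, was at 0 in 13 of the 14 libraries and had 1.13 expected counts in d2-FVFp replicate 1, against 48.87 for Gata5.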

How the data were processed

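Per the labels and the methods of the study, RNA of sorted cells was amplified with an oligo-dT SMART kit that does not keep the strand, sequenced as single-end reads, aligned with STAR to mm10 (GRCm38) and quantified by the authors with RSEM, library by library, against RefSeq transcripts; the versions are not given in the sources used here. The authors deposited expected counts and TPM per gene; the FPKM column was not used. The effective length in the same tables is the number of start positions RSEM allows per gene.

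Expected counts were rounded. Genes with at least 1 CPM (counts scaled to the library total) in at least 2 libraries were tested with edgeR 4.0.16 (TMM scaling, quasi-likelihood F test) once over the 10 libraries of days 0 and 3 and once over the 4 doxycycline libraries, with Benjamini-Hochberg adjustment over all genes tested. A call required an adjusted p below 0.05 and more than 1 log2 unit of change, up or down. The SE is the log2 fold change divided by the square root of F. TPM serve for levels between genes, being per length. The 5 members, Foxa2, counts for 9 gene lists with up to 4 called genes each (mean of at least 5 TPM), and the 3 genes most like each member were to be named. The members and lists were chosen with earlier results of these data known. The fits were tested on simulated data. Groups come from the labels, and clones from the names of the samples and files. Same-numbered libraries of a genotype at day 0 and day 3 share a clone, and their deviations from the group means correlated at 0.01 to 0.02. The alternatives were DESeq2 1.42.0, also tested against a 2-fold change, median-of-ratios scaling, no filter, a mean count of at least 50, blocks for replicate number and clone, fits of only the groups compared, and fits without single libraries or pairs of them. Library totals bound the precision: a count of 0 allows up to 3 counts, which is 0.11 to 0.212 CPM. Intervals and floors cover counting error only. Promoters are RefSeq windows from 250 bases before to 50 after a start (3 of the 5 members matched).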

Additional observations from a re-analysis of the deposited data

How the results depend on the processing

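Over the single members, 442 of 478 alternative values kept the direction and the side of the threshold, 15 lost a call, 19 gained one and 2 changed sign. The calls of Gata4 and Gata6 over time, and of Gata4 with doxycycline, were kept in every alternative run, with log2 fold changes of 6.66 to 7.12 and 7.20 to 8.33 in con, 4.48 to 5.40 and 5.58 to 6.62 in ko, and 2.44 to 2.75 for Gata4 with doxycycline. In the runs with a filter Gata6 entered the day comparisons only through its day 3 libraries. All 15 lost calls were those of Gata2 between d3ko and d3con. Over all 22 alternatives of that comparison, the 7 that kept the call included, its log2 fold change was 2.05 to 4.45 (edgeR or DESeq2 adjusted p = 0.000738 to 0.338). The sign changes were both in Gata6 between d0ko and d0con, at -0.41 without d0con replicate 2 and -0.20 without d0ko replicate 2, with a range of -0.41 to 0.73 over single libraries left out and at most 10 counts a library.

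Between d3ko and d3con, 1 member was called. With DESeq2, and without both replicate 2 libraries of day 3, 4 members were called (Gata2 higher, the others lower). Calls over all genes rose as well. They were 660 higher and 488 lower of 13899 in the main fit. The numbers were 997 and 681 of 13899 with DESeq2, and 1521 and 1051 of 13689 without both replicate 2 libraries of day 3. The latter fit held 1 clone in each day 3 group. 0 were called with DESeq2 tested against a 2-fold change, with the replicate block, with only the groups compared, without both replicate 1 libraries of day 3, without both replicate 3 libraries of day 3 (added after the data were seen), with the libraries of 1 clone summed and with the clone block. Leaving out single libraries gave 0 to 3 members, and over all genes 9 to 1280 higher and 71 to 969 lower. In the interaction, 1 member (Gata3) was called without both replicate 2 libraries of day 3, and 0 in the other alternatives. Over all genes, 942 were called higher and 686 lower of 13689 without these libraries, against 0 and 0 in the main fit. With doxycycline, leaving out single libraries gave 1 to 3 members, because Gata5 and Gata6 then left the test. The cause of the other changes was not tested.

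The replicate block removed the Gata2 call between d3ko and d3con (3.01; adjusted p = 0.0708) and added Gata3 between d2-FVFn and d2-FVFp (1.38; adjusted p = 0.0238), as did no filter (1.41; adjusted p = 0.038); it changed no other call of a member. Over all genes it gave 415 higher and 401 lower between d3ko and d3con against 660 and 488, and 1172 and 325 against 901 and 190 with doxycycline. Between con and ko a number is not a shared sample: the deviations of same-numbered libraries correlated at 0.54, 0.29 and -0.01 at day 3, at 0.11 at day 0, and at 0.28 between d2-FVFn and d2-FVFp. Gata3 was also called from d0con to d3con with DESeq2 (2.68; adjusted p = 0.0112), with no filter (2.73; adjusted p = 0.048) and without both replicate 2 libraries of day 3 (3.26; adjusted p = 0.00054), and Gata2 lower without both replicate 1 libraries (-2.50; adjusted p = 0.045). Of the 3 genes most like a member, 0 remained under Spearman ranking for Gata4, Gata5 and Gata6, and 1 for Gata2 and Gata3. Means on TMM-scaled counts per length moved by more than 1 SD in 3 of 30 cases. Counts under about 10 limit Gata5 outside d2-FVFp and Gata6 at day 0.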
